A study of Mus musculus with 10 samples.

Results

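The genes described are 5 joining (J) segments of the mouse T cell receptor alpha locus, TRAJ2, TRAJ9, TRAJ11, TRAJ16 and TRAJ17, which lie toward the constant gene Trac. Their chains were found in all 10 clonotype tables by the last residues of the CDR3, the receptor loop that spans the V-J junction: LSGKLTF for TRAJ2, MGYKLTF for TRAJ9, GYNKLTF for TRAJ11, GQKLVF for TRAJ16 and AGNKLTF for TRAJ17. The V and J names in the tables were not used, because alpha chains are listed there under beta gene names. The 5 genes held 22802 of 190284 alpha entries and 57764 of 482226 alpha counts, or 11.98% of the alpha counts, and were 5 of 36 TRAJ genes with any count. These entries made 15775 distinct nucleotide clonotypes and 9464 distinct amino acid clonotypes.

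The series sequenced T cell receptor transcripts of regulatory T (Treg) cells from mouse spleen in 10 libraries. The 5 CNS4KO libraries came from mice that lack CNS4, an enhancer of Foxp3, which encodes the transcription factor that defines Treg cells. The 5 CNS4Flox libraries came from mice with the floxed enhancer. The cells were untreated and went straight to RNA extraction. Age, sex, the Cre line, the number of cells and whether each library came from a separate mouse are not given in the sources used here, so p-values measure the spread between these libraries, which may be technical. Replicate numbers are the order of the samples within a group and pair nothing, and where 5 values of a group are listed, they are those of its replicates 1 to 5 in turn. Foxp3 and other Treg markers were not sequenced, so the sort could not be checked by them. Counts may be reads or molecules, which is not stated, and intervals given below cover counting error only.

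A developing T cell rearranges its alpha locus in rounds. The first rounds join V genes to J segments at the V-proximal end of the J array, and each later round deletes the segment in use and moves toward Trac, until the receptor is selected or the cell dies. J segments near Trac are therefore known as the ones used in late rounds. The J segment supplies the 3′ part of the CDR3, and bases are trimmed from it and added at the junction.

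RefSeq's GRCm38 annotation (mm10 is the build in the submitters' processing notes) has all 5 as J segments on chromosome 14. Traj17 spans 54201775 to 54201837 and ends 18684 bases before Trac, which spans 54220521 to 54224198. Traj16 spans 54203134 to 54203194, 17327 bases from Trac. Traj11 spans 54207139 to 54207197, 13324 bases from Trac. Traj9 spans 54209393 to 54209450, 11071 bases from Trac. Traj2 spans 54217836 to 54217901, only 2620 bases from Trac. Counted from Trac they are numbers 16, 15, 10, 9 and 2 of 60 annotated Traj genes, whereas Traj58, Traj49 and Traj48, the V-proximal segments set beside them here, lie 63179, 51777 and 50653 bases away.

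The most frequent last 27 bases of the CDR3 are shown for each gene, because these bases define the members. Capitals mark the bases of the residues used to find the chains, and lower case the 5′ J bases that were not used.
TRAJ17: aacagtGCAGGGAACAAGCTAACTTTT
TRAJ16: acttcaagtGGCCAGAAGCTGGTTTTT
TRAJ11: gactcgGGATACAACAAACTCACTTTT
TRAJ9: agcaacATGGGCTACAAACTTACCTTC
TRAJ2: ggaggaCTAAGTGGTAAATTAACATTC
The capital bases were identical in 99.6% of distinct TRAJ17 clonotypes and in 99.9% or more of those of the other 4 genes. All 27 bases were intact in 97.4% of TRAJ2, 63.8% of TRAJ17, 61.8% of TRAJ16, 45.2% of TRAJ11 and 22.2% of TRAJ9 clonotypes. The window is the same for all genes while the annotated segments differ in length, with 58 bases in Traj9 and 66 in Traj2, so these shares do not rank the genes by how much was trimmed. Just outside the rule were 716 entries with 1361 counts that end in GYKLTF without the M of TRAJ9, and 66 entries with 96 counts that end in GNKLTF without the A of TRAJ17.

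Each library held 61793 to 95853 counts, of which 40091 to 68224 were alpha. CNS4KO replicate 5 and CNS4Flox replicate 3 shared clonotypes beyond any other pair of libraries. They had 454 nucleotide clonotypes of the 5 genes in common, the most of 45 pairs, followed by 440 for CNS4Flox replicates 1 and 5. Of those, 18 had at least 10 counts in both libraries, against at most 9 in any other pair, and 6 of them occurred in no other library, against at most 1. The tests over TRAJ genes and chains were therefore also run without these 2 libraries. Single-count shares, CDR3 starts, length distributions and the numbers of libraries a chain was found in were not. The invariant NKT cell alpha CDR3, a sign of other T cells in the sort, held 0.146% to 0.245% of alpha counts in CNS4KO and 0.0879% to 0.218% in CNS4Flox libraries. Chains with the end of TRAJ33, the segment of MAIT cells, had 0 counts, but other TRAJ genes such as TRAJ13 and TRAJ35 also had at most 1 count in any library, so this 0 does not speak to MAIT cells. The part of NKT cells in the results was not tested, and the invariant NKT chain uses TRAJ18, which is not among the 5 genes.

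By listed counts, TRAJ9 and TRAJ17 stood at middle levels, TRAJ16 and TRAJ11 at low levels, and TRAJ2 lowest. Some other TRAJ genes were almost absent: TRAJ13 and TRAJ35 had at most 1 count in any library and TRAJ23 at most 8. Whether the chains of each J gene were listed equally fully was not tested. The ranks below therefore describe listed counts, not how often cells use a segment. TRAJ9 was rank 11 and TRAJ17 rank 12 of the 31 TRAJ genes tested, with means over the 10 libraries of 4.34% and 3.86% of alpha counts. TRAJ16 and TRAJ11 had ranks 23 and 25 with means of 1.77% and 1.59%. TRAJ2 had the lowest mean of the 31 genes, 0.272%. The ranges over libraries of TRAJ9 and TRAJ17 overlapped, as did those of TRAJ16 and TRAJ11. By counts the order within each pair did not hold in every library. TRAJ17 was above TRAJ9 in CNS4KO replicates 1 and 5, and TRAJ11 above TRAJ16 in CNS4KO replicates 2 and 4. By distinct clonotypes TRAJ9 was above TRAJ17, and TRAJ16 above TRAJ11, in every library. TRAJ2 lay below the other 4 genes in every library.

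The share of TRAJ9 was 5.91%, 3.54%, 4.03%, 4.18% and 3.98% of alpha counts in the CNS4KO libraries, against 4.33%, 4.11%, 4.59%, 4.86% and 3.84% in the CNS4Flox libraries. CNS4KO replicate 1 was the highest library, and the other 4 CNS4KO libraries lay within or below the CNS4Flox range. The means were 4.33% ± 0.915 and 4.34% ± 0.397 (SD, n = 5 each).

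The share of TRAJ17 was 6.46%, 2.77%, 3.68%, 3.82% and 4.201% in the CNS4KO libraries, against 3.63%, 3.54%, 3.18%, 3.77% and 3.55% in the CNS4Flox libraries. Here CNS4KO replicate 1 was again the highest library and CNS4KO replicate 2 the lowest, so that the groups overlapped and the CNS4KO libraries were the more spread. The means were 4.19% ± 1.37 and 3.54% ± 0.221 (SD, n = 5 each).

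TRAJ16 held 1.30%, 1.78%, 2.08%, 1.499% and 2.17% in the CNS4KO libraries, against 1.86%, 1.73%, 1.77%, 1.68% and 1.83% in the CNS4Flox libraries. The CNS4KO values fell on both sides of the narrow CNS4Flox range. TRAJ11 held 1.29%, 1.98%, 1.49%, 1.69% and 1.38% in the CNS4KO libraries, against 1.84%, 1.46%, 1.57%, 1.504% and 1.69% in the CNS4Flox libraries. Its lowest and its highest value were both in CNS4KO libraries. TRAJ2 held 0.274%, 0.182%, 0.274%, 0.367% and 0.377% in the CNS4KO libraries, against 0.245%, 0.245%, 0.140%, 0.316% and 0.302% in the CNS4Flox libraries. These TRAJ2 shares rest on 65 to 208 counts a library, and the groups overlapped.

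None of the 5 genes was called between the groups by counts. In edgeR's quasi-likelihood test over 31 TRAJ genes, 0% were called higher and 0% lower at an adjusted p below 0.05, and 0 of the 5 genes were called. At an unadjusted p below 0.05 the test had 1 gene higher and 1 lower among the 31, neither of them among the 5, and DESeq2 called 0 of the 5 as well. The log2 fold changes of CNS4KO over CNS4Flox were 0.25 (SE 0.16) for TRAJ17, 0.24 (SE 0.23) for TRAJ2, -0.01 (SE 0.13) for TRAJ9, -0.01 (SE 0.15) for TRAJ16 and -0.05 (SE 0.14) for TRAJ11. Their edgeR adjusted p-values were 0.601, 0.758, 0.996, 0.996 and 0.933. The median log2 fold change was -0.01 over the 5 genes and -0.01 over all 31. By position, 0 of the 4 other tested genes numbered 18 or below, 0 of 8 numbered 19 to 35 and 0 of 14 numbered 36 or above were called in either direction. Without CNS4KO replicate 5 and CNS4Flox replicate 3, the value of TRAJ2 was -0.02 and no gene of the 5 was called.

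Counting each distinct clonotype once brought the group means of TRAJ9, TRAJ11 and TRAJ17 closer and moved those of TRAJ2 and TRAJ16 slightly further apart. TRAJ9 made up 4.28% ± 0.155 of the distinct alpha clonotypes in CNS4KO and 4.28% ± 0.0708 in CNS4Flox libraries (SD, n = 5 each). TRAJ17 made up 3.87% ± 0.117 and 3.74% ± 0.155, and TRAJ16 1.82% ± 0.0492 and 1.85% ± 0.128. TRAJ11 made up 1.71% ± 0.0544 and 1.69% ± 0.0802, and TRAJ2 0.397% ± 0.0581 and 0.340% ± 0.0604. In edgeR's test of these numbers, 3.23% of the 31 genes (TRAJ32 alone) were called higher in CNS4KO and 0% lower, and none of the 5 genes was called. The log2 fold changes ran from -0.03 for TRAJ16 to 0.24 for TRAJ2, with edgeR adjusted p-values of 0.900 and 0.683. The SD of the TRAJ17 share among CNS4KO libraries was 1.37 by counts and 0.117 by distinct clonotypes.

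**Figure D1:**
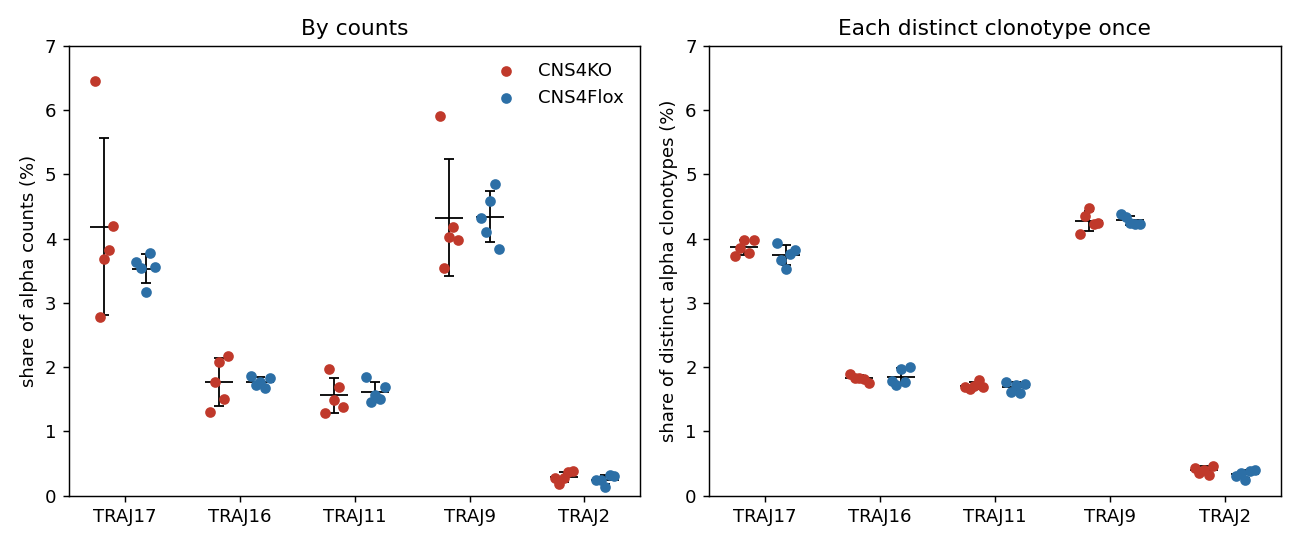
Share of alpha counts (left) and of distinct alpha clonotypes (right), in percent, for each J gene in every library, with points for libraries and bars for the group mean and SD (n = 5). On the left CNS4KO replicate 1 stands at 6.46% for TRAJ17 and 5.91% for TRAJ9, and on the right the TRAJ17 means are 3.87% and 3.74% and those of TRAJ2 0.397% and 0.340%.

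Together the 5 genes held 15.2%, 10.2%, 11.6%, 11.6% and 12.1% of alpha counts in the CNS4KO libraries, against 11.9%, 11.1%, 11.2%, 12.1% and 11.2% in the CNS4Flox libraries. CNS4KO libraries were the highest and the lowest, with CNS4KO replicate 1 (95% Wilson interval 15.0% to 15.5%) above all others. The means were 12.1% ± 1.86 and 11.5% ± 0.470 (SD, n = 5 each), a difference of 0.620 percentage points, and the difference was -0.152 without CNS4KO replicate 1 and 1.09 without CNS4KO replicate 2. No test is given for this sum. The 3 V-proximal genes TRAJ58, TRAJ49 and TRAJ48 held 6.48% ± 0.773 and 6.46% ± 0.269 together. The log2 ratio of the 5 genes' counts to those of the V-proximal genes was 0.90 ± 0.34 in CNS4KO and 0.84 ± 0.08 in CNS4Flox libraries. It was lowest in CNS4KO replicate 2, at 0.44, and highest in CNS4KO replicate 1, at 1.34, with all CNS4Flox libraries between 0.72 and 0.92.

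The TRAJ genes whose share was most like the summed share of the 5 over the 10 libraries, among 26 other genes, were TRAJ50 (Pearson r = 0.83), TRAJ22 (r = 0.56) and TRAJ42 (r = 0.54). All genes of a library share its alpha total, so their shares are not independent, and CNS4KO replicate 1 was highest for all 3 genes. Without that library r was -0.22, 0.45 and -0.37, so the likeness of TRAJ50 and TRAJ42 rested on it.

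CNS4KO replicate 1 held 2 very large chains, the most abundant TRAJ17 and TRAJ9 chains of the series. Their CDR3 nucleotides are shown with those of the largest TRAJ11 and TRAJ16 chains and the largest TRAJ2 chains. Capitals mark the 3′ bases that match the most frequent J bases of the gene, and lower case all bases before them. Matching stops where no base reaches 50% of the gene's distinct clonotypes. Lower case can thus include J bases besides V and junction bases.
TRAJ17, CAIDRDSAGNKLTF: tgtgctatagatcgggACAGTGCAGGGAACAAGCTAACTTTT
TRAJ9, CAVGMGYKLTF: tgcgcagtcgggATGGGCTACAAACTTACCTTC
TRAJ16, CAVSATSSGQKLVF: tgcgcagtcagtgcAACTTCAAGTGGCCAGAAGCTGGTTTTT
TRAJ11, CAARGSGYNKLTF: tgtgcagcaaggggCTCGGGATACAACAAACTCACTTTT
TRAJ2, in CNS4KO replicate 5: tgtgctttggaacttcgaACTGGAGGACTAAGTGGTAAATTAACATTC
TRAJ2, in CNS4KO replicate 4: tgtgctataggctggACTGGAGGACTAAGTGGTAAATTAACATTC
The TRAJ17 chain has 26 matched J bases after 16 other bases, and the TRAJ9 chain has 21 after 12. The TRAJ9 chain thus kept no J base 5′ of its MGYKLTF end, and at 11 residues its CDR3 is 3 residues shorter than that of the TRAJ17 chain. Each was nearly a single nucleotide sequence: 99.9% of the TRAJ17 chain's counts and 99.3% of the TRAJ9 chain's counts had the sequence shown.

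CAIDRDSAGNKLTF had 2042 counts in CNS4KO replicate 1, or 2.99% of its alpha counts (95% Wilson interval 2.87% to 3.12%), 2 counts in CNS4Flox replicate 2 and 0 in the other 8 libraries. A count of 0 allows up to 3 counts, a share of 0.00440% to 0.00748% of alpha counts over the libraries. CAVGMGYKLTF had 1941 counts in CNS4KO replicate 1, or 2.85% (2.72% to 2.97%), and 13 counts in all over 5 other libraries, namely 2 and 4 in CNS4KO replicates 2 and 5 and 3, 1 and 3 in CNS4Flox replicates 1, 2 and 5. They were ranks 1 and 2 among all alpha chains of that library and made up 46.3% of its TRAJ17 and 48.2% of its TRAJ9 counts. The 2 chains were close to each other in abundance. The largest beta chain of the same library had 506 counts, 1.87% of its beta counts, and the next had 217. Setting both chains aside left TRAJ9 at 3.25% and TRAJ17 at 3.68% of the alpha counts of CNS4KO replicate 1, and the 5 genes together at 9.97%. The TRAJ9 and summed values were then below those of every other library, of which CNS4KO replicate 2 was lowest, at 3.54% and 10.2%. No chain was set aside in the other libraries. In RNA libraries, more cells of a clone and more receptor RNA per cell cannot be told apart.

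Other large chains were likewise high in 1 library, but not always rare elsewhere. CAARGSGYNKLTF (TRAJ11) had 364 counts in CNS4KO replicate 2, 36.8% of the TRAJ11 counts there, 0 in the other 4 CNS4KO libraries and 0, 2, 1, 0 and 1 in CNS4Flox replicates 1 to 5. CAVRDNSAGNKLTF (TRAJ17) had 201 counts in CNS4KO replicate 4, 0, 0, 1 and 7 in CNS4KO replicates 1, 2, 3 and 5, and 2, 0, 0, 5 and 0 in CNS4Flox replicates 1 to 5. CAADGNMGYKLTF (TRAJ9) had 101 counts in CNS4Flox replicate 4 and 0 in the other 9 libraries. These 3 chains were thus close to private to their library. The largest TRAJ2 chains, the pair shown above, had 57 counts in CNS4KO replicate 5 and 44 counts in CNS4KO replicate 4 and 0 elsewhere.

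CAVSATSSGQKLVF (TRAJ16) differed in that it was found in every library. It had 353 counts in CNS4KO replicate 3 and 91 in CNS4Flox replicate 1, and elsewhere 11, 3, 3 and 5 in CNS4KO replicates 1, 2, 4 and 5 and 5, 4, 14 and 5 in CNS4Flox replicates 2 to 5. It was made by 11 nucleotide sequences, the one shown holding 85.6% of its counts. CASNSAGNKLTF (TRAJ17) had 302, 24, 6, 2 and 7 counts in the CNS4KO libraries, against 2, 11, 5, 0 and 2 in the CNS4Flox libraries. It was high in CNS4KO replicate 1 and at low counts in 8 of the other libraries.

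Of the alpha chains found in at least 5 libraries, 7167 were tested with edgeR's quasi-likelihood test, and 0.0698% were called higher in CNS4KO and 0.0558% lower at an adjusted p below 0.05. Of the 828 that belong to the 5 genes, 1 was called higher and 0 lower, and 29 and 39 had an unadjusted p below 0.05. The chain called was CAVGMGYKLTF (log2 fold change 7.41, SE 1.47, edgeR adjusted p = 0.0107), with the counts given above. By share it was higher than every CNS4Flox library in 2 of 5 CNS4KO libraries, and the call rests on CNS4KO replicate 1. Without that library its log2 fold change was -0.07 (edgeR adjusted p = 0.986). The call was also lost without CNS4Flox replicate 4 (log2 fold change 7.12, edgeR adjusted p = 0.0560) and without CNS4KO replicate 5 and CNS4Flox replicate 3 (7.42, edgeR adjusted p = 0.0518), with folds near the full one, and DESeq2 called 0 chains of the 5 genes. Leaving out CNS4KO replicate 1, CNS4KO replicate 3 or CNS4Flox replicate 5 gave 3, 3 and 2 called chains. Neither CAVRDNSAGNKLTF (log2 fold change 4.86, edgeR adjusted p = 0.0744) nor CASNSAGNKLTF (3.47, edgeR adjusted p = 0.150) passed.

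Within each gene, the CNS4KO libraries held on average fewer distinct clonotypes at equal counts than the CNS4Flox libraries. Equal counts need not be equal cells, since cell numbers are not given and counts may be reads or molecules. Counts per distinct clonotype averaged 3.20 in CNS4KO and 2.04 in CNS4Flox for the 5 genes, and 3.13 and 2.13 for the other TRAJ genes. Fewer cells in a library and lower diversity therefore cannot be told apart here. TRAJ17, brought to 1388 counts, had 316, 607, 529, 527 and 582 distinct nucleotide clonotypes in the CNS4KO libraries, against 846, 708, 660, 698 and 723 in the CNS4Flox libraries. All CNS4KO libraries were below all CNS4Flox libraries, with replicate 1 far below the rest. TRAJ16, at 601 counts, had 266, 223, 204, 269 and 230 in the CNS4KO libraries, against 340, 307, 312, 324 and 342 in the CNS4Flox libraries. Its groups did not overlap either, and no single library stood out.

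TRAJ9, at 1673 counts, had 420, 663, 628, 626 and 725 distinct clonotypes in the CNS4KO libraries, against 953, 860, 707, 753 and 865 in the CNS4Flox libraries. The groups met at CNS4KO replicate 5, which was above CNS4Flox replicate 3. TRAJ11, at 596 counts, had 235, 182, 235, 247 and 296 in the CNS4KO libraries, against 335, 319, 292, 312 and 306 in the CNS4Flox libraries. The same libraries, CNS4KO replicate 5 and CNS4Flox replicate 3, crossed in this gene.

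By an exact 2-sided permutation test over libraries (smallest possible p 0.00794), adjusted over the 30 TRAJ genes with at least 100 counts in every library, all 4 genes passed. TRAJ17 had 512 ± 115 against 727 ± 70.4 distinct clonotypes (SD, n = 5 each; exact permutation p = 0.00794, adjusted 0.0170) and TRAJ16 239 ± 28.3 against 325 ± 15.9 (exact permutation p = 0.00794, adjusted 0.0170). TRAJ9 had 612 ± 115 against 828 ± 97.6 (exact permutation p = 0.0159, adjusted 0.0227) and TRAJ11 239 ± 40.8 against 313 ± 16.1 (exact permutation p = 0.0159, adjusted 0.0227). The ratios of CNS4KO to CNS4Flox were 0.705, 0.733, 0.740 and 0.763. This was not particular to these genes: 90% of the 30 genes were called lower, and groups did not overlap in 46.7% of them. The median ratio over the 30 genes was 0.746, with a range of 0.671 to 0.856. Among them were TRAJ58, TRAJ49 and TRAJ48 at 0.856, 0.728 and 0.673. TRAJ2 had too few counts to be tested.

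Clonotypes found once in a library were a smaller part of the distinct clonotypes in CNS4KO. Without thinning, single-count clonotypes made up 57.8% ± 3.33 of distinct TRAJ17 clonotypes in CNS4KO and 66.6% ± 2.54 in CNS4Flox libraries (SD, n = 5 each), and the groups did not overlap. For TRAJ9 they made up 57.4% ± 2.10 and 63.9% ± 2.37, again with no overlap. TRAJ16 had 57.7% ± 4.33 and 64.6% ± 3.17, TRAJ11 59.98% ± 6.24 and 68.7% ± 3.81, and TRAJ2 65.97% ± 8.19 and 74.9% ± 3.59, with overlap in all 3 genes. Over the 30 genes the groups did not overlap in 53.3%. When clonotypes with a count of 1 were left out, 0 of the 4 genes and 0% of the 30 passed the richness test. Without thinning to equal counts 2 of the 4 and 70% of the 30 passed. Without CNS4KO replicate 5 and CNS4Flox replicate 3, all 4 and 93.3% of the 30 passed.

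The 10 most abundant clonotypes took a larger part of each gene's counts in CNS4KO libraries on average, with wide spread. For TRAJ17 the share was 65.4%, 22.4%, 27.9%, 32.6% and 29.4% in the CNS4KO libraries, against 10.1%, 17.7%, 22.7%, 18.1% and 15.2% in the CNS4Flox libraries, at equal counts. Only CNS4KO replicate 2 lay under the highest CNS4Flox value. The means were 35.5% ± 17.1 and 16.7% ± 4.61 (SD, n = 5 each; exact permutation p = 0.0159, adjusted over 30 genes 0.0866). For TRAJ16 it was 22.9%, 40.9%, 50.5%, 20.6% and 36.4% in the CNS4KO libraries, against 21.8%, 21.4%, 24.8%, 19.8% and 14.8% in the CNS4Flox libraries, with CNS4KO replicates 2, 3 and 5 above every CNS4Flox library. The means of TRAJ11 were 37.3% and 25.7%, and those of TRAJ9 29.5% and 16.1%. TRAJ16, TRAJ11 and TRAJ9 had an adjusted exact permutation p of 0.119 each.

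None of the 4 genes passed this test after adjustment, and 0% of the 30 genes did. At an unadjusted exact permutation p below 0.05, 15 of the 30 genes were higher in CNS4KO, TRAJ17 among them and the other 3 not. The difference of means was positive in all 30 genes, with a median of 11.7 percentage points over the 30 and 13.5 over the 4. The groups did not overlap in 6.67% of the 30 genes and in none of the 4. Without CNS4KO replicate 1 the TRAJ17 difference was 11.4 points in place of 18.8, and with the 20 most abundant clonotypes in place of 10, TRAJ17 passed (adjusted exact permutation p = 0.0397), as did 20% of the 30 genes. In TRAJ2, described without a test, the share was 53.0% ± 9.19 and 36.4% ± 3.20 without thinning.

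**Figure D2:**
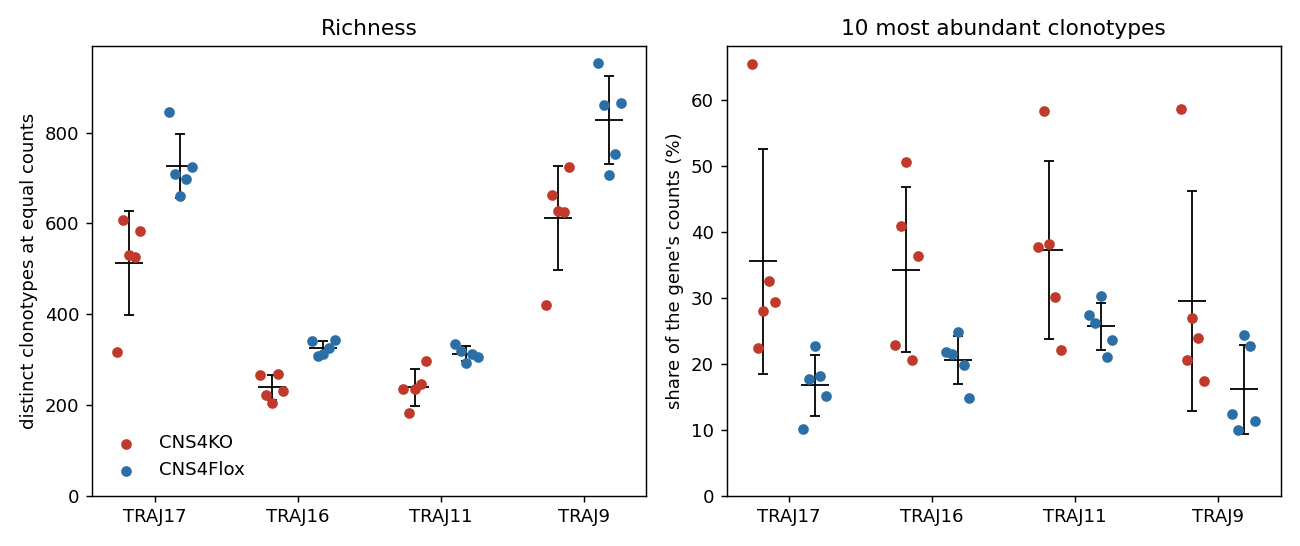
Number of distinct nucleotide clonotypes at equal counts (left) and share of the gene's counts held by its 10 most abundant clonotypes, in percent (right), with points for libraries and bars for the mean and SD (n = 5). TRAJ17 and TRAJ16 groups do not overlap on the left, and on the right CNS4KO replicate 1 reaches 65.4% for TRAJ17 and 58.6% for TRAJ9.

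Expanded clonotypes, taken here as those with at least 0.05% of a library's alpha counts, numbered 16, 19, 21, 22 and 25 over the 5 genes in the CNS4KO libraries, against 11, 12, 24, 15 and 10 in the CNS4Flox libraries. CNS4Flox replicate 3 lay within the CNS4KO range and the other 4 CNS4Flox libraries below it. CNS4KO replicate 1, with the 2 largest chains, had the fewest expanded clonotypes of its group. The other TRAJ genes together had 147 to 223 in the CNS4KO and 63 to 138 in the CNS4Flox libraries, with no overlap. The higher CNS4KO number was thus not particular to the 5 genes. Expanded TRAJ17 clonotypes numbered 7.40 ± 1.82 a library in CNS4KO and 3.60 ± 1.14 in CNS4Flox (SD, n = 5 libraries each). They held 62.8%, 15.3%, 25.5%, 29.2% and 29.5% of TRAJ17 counts in the CNS4KO libraries, against 3.47%, 12.5%, 15.7%, 11.96% and 8.32% in the CNS4Flox libraries. CNS4KO replicate 2 was the only library of its group within the CNS4Flox range. The means were 32.5% ± 17.9 and 10.4% ± 4.66 (exact permutation p = 0.0159, adjusted over 30 genes 0.0893).

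In the other tested genes the expanded share overlapped more. TRAJ9 had means of 26.4% and 13.7%, TRAJ11 22.6% and 11.3%, and TRAJ16 20.9% and 8.91%, with adjusted exact permutation p-values of 0.260, 0.278 and 0.238. None of the 4 genes and 0% of the 30 were called, while 12 of the 30, TRAJ17 included, had an unadjusted exact permutation p below 0.05. With a threshold of 0.02% TRAJ17 passed (adjusted exact permutation p = 0.0476), as did 33.3% of the 30 genes. TRAJ16 had no expanded clonotype in CNS4KO replicate 1, and TRAJ11 had none in CNS4Flox replicate 4. TRAJ2 had 1 expanded clonotype in each of CNS4KO replicates 1, 4 and 5 and none in any CNS4Flox library.

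**Figure D3:**
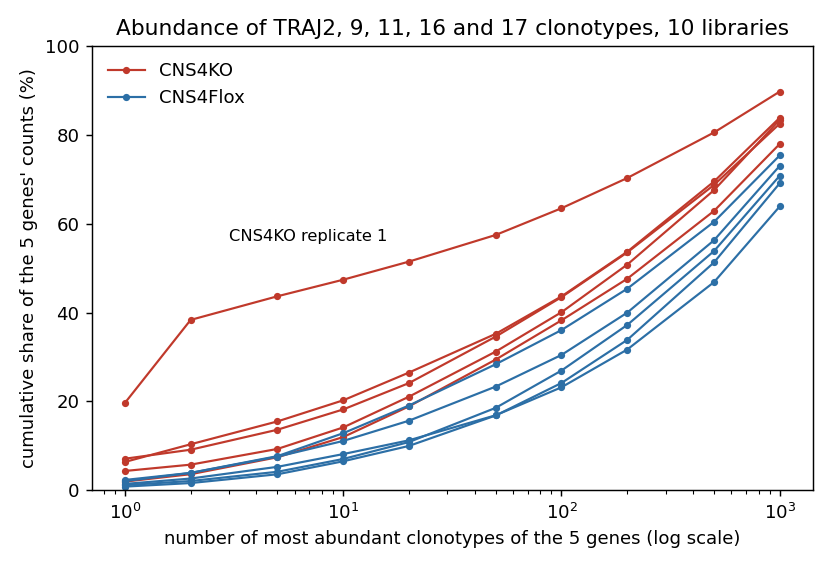
Cumulative share of the 5 genes' counts, in percent, held by their most abundant nucleotide clonotypes in each library, against the number of clonotypes on a log scale. The curve of CNS4KO replicate 1 starts at 19.7% with a single clonotype, and the other 9 libraries start between 0.820% and 7.10%.

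Among the 100 largest alpha chains of a library, the 5 genes supplied 11, 5, 11, 10 and 18 in the CNS4KO libraries, against 11, 8, 13, 13 and 10 in the CNS4Flox libraries, a mean of 11 in both groups (SD 4.64 and 2.12). They held 25.1% of the counts of these 100 chains in CNS4KO replicate 1 and 5.28% to 12.7% in the other libraries. CNS4KO replicate 1 was also the only library whose largest alpha chain belonged to the 5 genes.

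CDR3 length differed between the genes far more than between the groups. Mean length over distinct clonotypes was 13.1 residues in CNS4KO and 13.2 in CNS4Flox for TRAJ9, 13.5 in both groups for TRAJ11, 13.8 for TRAJ16, 14.0 for TRAJ17, and 15.5 and 15.4 for TRAJ2. TRAJ9 was the shortest of the 5 genes and TRAJ2 the longest. A length of 14 residues was the most frequent in TRAJ16, with 46.8% of its clonotypes, in TRAJ17 (33.8%) and in TRAJ9 (31.8%). TRAJ11 peaked at 13 residues (35.8%) and TRAJ2 at 16 (30.7%). TRAJ16 lengths were the most concentrated, since no length of another gene of the 5 exceeded 35.8%. All other TRAJ genes pooled peaked at 14 residues with 29.5%.

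**Figure D4:**
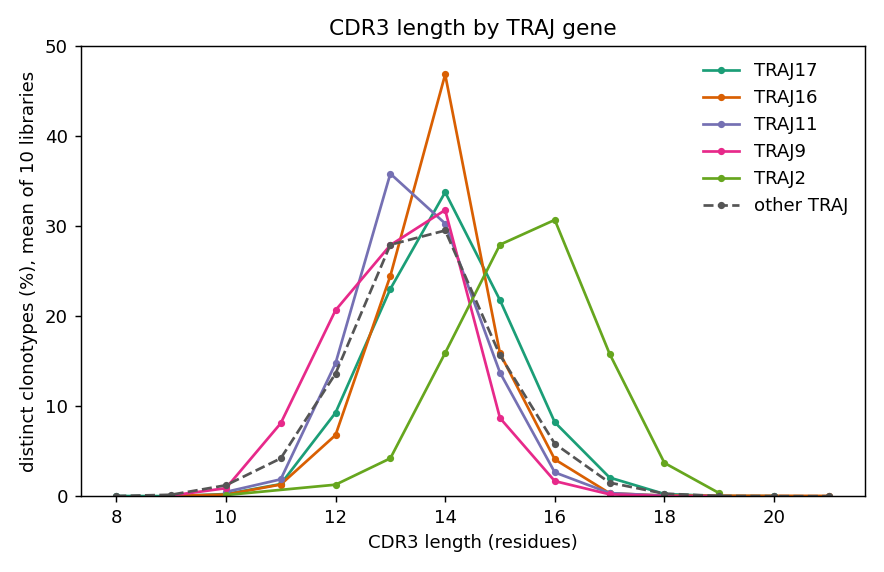
Percentage of distinct nucleotide clonotypes at each CDR3 length in residues, as the mean of 10 libraries, for the 5 genes (solid lines) and all other TRAJ genes pooled (dashed). TRAJ2 is shifted to 16 residues, and TRAJ16 has the highest peak, 46.8% at 14 residues.

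Between the groups, mean length differed by -0.0414 residues in TRAJ17 (13.97 ± 0.0217 against 14.01 ± 0.0332, SD, n = 5 each; exact permutation p = 0.0476, adjusted over 30 genes 0.685). It differed by -0.0199 in TRAJ9, -0.0432 in TRAJ11 and 0.00772 in TRAJ16, each with an adjusted exact permutation p of 0.714 or above. None of the 4 genes and 0% of the 30 were called, and TRAJ17 was the only gene of the 30 with an unadjusted exact permutation p below 0.05.

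The bases matched to the J segment followed the same order as length. Matches are counted only up to where no base reaches 50% of the gene's distinct clonotypes. That limit can differ between genes, so the order can be set in part by the measure. On average 24.5 bases at the 3′ end of TRAJ9 CDR3s matched the J bases in CNS4KO and 24.6 in CNS4Flox, while TRAJ11 kept 25.8, TRAJ16 26.9, TRAJ17 27.1 and TRAJ2 31.6 to 31.7. The groups differed by -0.0569 to 0.0246 bases in the 4 tested genes, and 0% of the 30 genes were called (adjusted exact permutation p 0.714 to 0.984 in the 4 genes). In TRAJ17, CNS4KO replicate 3 was highest, at 27.35.

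The first residues of the CDR3 come mostly from the V gene, but J bases reach the fourth in some chains, such as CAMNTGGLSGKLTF, so the starts do not reflect the V gene alone. CAAS was the most frequent start over the 5 genes together, with 12.3% ± 1.05 of distinct clonotypes in CNS4KO and 13.3% ± 0.647 in CNS4Flox libraries (SD, n = 5 each). CALS followed with 10.6% and 11.1%, CAVS with 9.25% and 9.58%, and CALG with 8.01% and 7.40%. CAAS also led within TRAJ9, TRAJ11, TRAJ16 and TRAJ17, each taken alone. TRAJ2 began most often with CAVS, 13.4% in CNS4KO and 13.5% in CNS4Flox libraries, and CAAS was at 7.54% and 9.51%. These TRAJ2 shares come from 48 to 94 distinct clonotypes a library. The V gene itself was not identified here.

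Most amino acid chains of the 5 genes were seen in 1 library, and 89 of 9464, or 0.940%, were in all 10. Of these 89, 43 belonged to TRAJ9, 22 to TRAJ17, 17 to TRAJ16, 7 to TRAJ11 and 0 to TRAJ2. They held 15.0% ± 1.97 of the 5 genes' counts in CNS4KO and 15.1% ± 1.10 in CNS4Flox libraries (SD, n = 5 each). The other TRAJ genes had 794 of 64330 chains in all 10 libraries, 1.23%, which held 22.0% ± 1.201 and 21.2% ± 0.976 of their counts. The difference between these gene sets was not tested. Among the 5 genes, chains in all 10 libraries were 1.43% of TRAJ9, 1.23% of TRAJ16, 0.730% of TRAJ17 and 0.441% of TRAJ11 chains. TRAJ16 chains found in all 10 libraries held 29.0% ± 12.4 and 24.8% ± 2.55 of TRAJ16 counts, the largest part for any of the 5 genes.

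Chains in more libraries were shorter over the 5 genes together and made by more nucleotide sequences. Chains of the 5 genes found in 1 library had 1.02 nucleotide sequences and 14.2 residues on average. Those in 2 to 4 libraries had 2.14 and 13.8, those in 5 to 9 had 4.60 and 13.4, and those in all 10 had 9.26 and 13.1. The lengths mix genes, since 43 of the 89 chains in all 10 libraries were of TRAJ9, the gene with the lowest mean length. Within TRAJ9 the mean was 12.87 residues in 5 to 9 libraries and 12.91 in all 10. A chain with few entries can have only few sequences, so the trend in nucleotide sequences is in part fixed by how often a chain was counted. The other TRAJ genes gave 1.02, 2.16, 4.80 and 9.91 sequences over the same classes. In TRAJ17, kept J bases were 26.6, 26.99, 27.4 and 28.0 over the classes, and in TRAJ9 24.3, 24.4, 24.5 and 24.9.

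**Figure D5:**
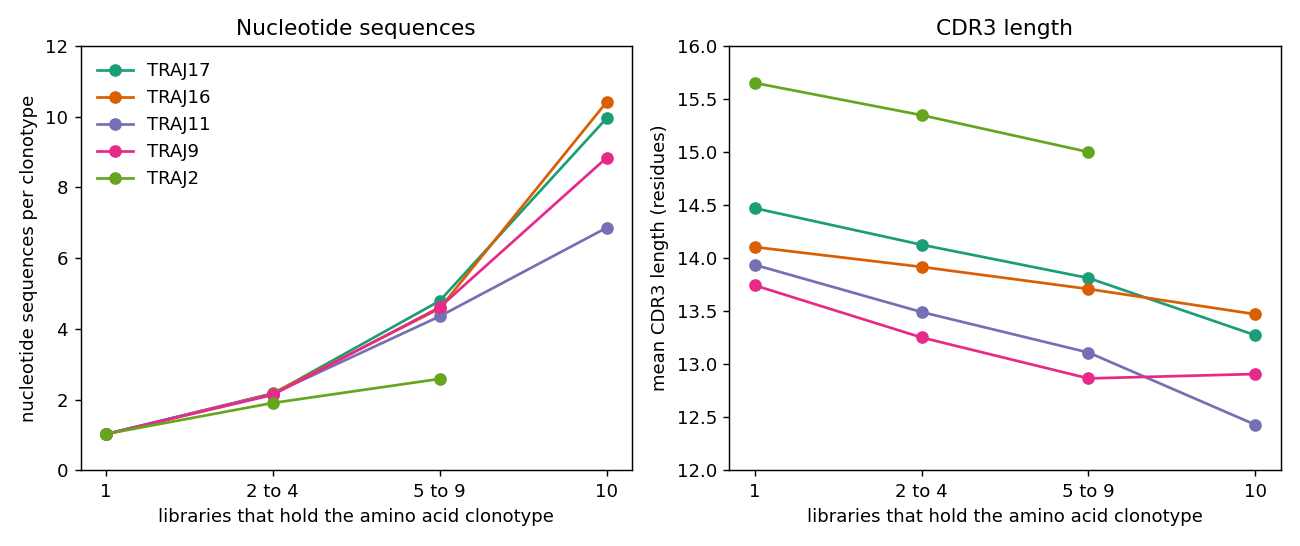
Mean number of nucleotide sequences per amino acid chain (left) and mean CDR3 length in residues (right), for chains found in 1, 2 to 4, 5 to 9 or all 10 libraries. TRAJ16 reaches 10.4 sequences a chain in all 10 libraries, and TRAJ2, with no such chain, ends at 2.58 sequences and 15.0 residues.

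A widely shared chain of each gene is shown, by its most counted sequence. Its bases before the matched J bases can so be set beside those of the large chains above. Capitals again mark the matched J bases, with the same limit.
TRAJ9, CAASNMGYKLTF: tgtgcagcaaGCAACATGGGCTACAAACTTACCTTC
TRAJ11, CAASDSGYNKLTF: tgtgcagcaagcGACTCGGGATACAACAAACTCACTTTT
TRAJ16, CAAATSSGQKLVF: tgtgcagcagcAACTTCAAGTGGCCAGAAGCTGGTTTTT
TRAJ17: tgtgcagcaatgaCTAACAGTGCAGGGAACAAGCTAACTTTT
TRAJ2, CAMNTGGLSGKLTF: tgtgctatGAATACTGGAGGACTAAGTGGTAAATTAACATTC
These are the chains found in most libraries, with ties settled by mean share, except for TRAJ16, where that chain is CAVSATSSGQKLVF, shown above, and the next by mean share is printed. They carry 10, 12, 11, 13 and 8 bases before the matched J bases, and the 6 large chains 16, 12, 14, 14, 18 and 15. These numbers can include J bases beyond the point where matching stops. In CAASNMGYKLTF the base just before the capitals also matches the most frequent TRAJ9 end shown earlier. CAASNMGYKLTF was made by 18 nucleotide sequences, the most of any chain of the 5 genes, and the one shown held 52.3% of its counts. It had 23, 82, 13, 55 and 49 counts in the CNS4KO libraries, against 29, 58, 76, 22 and 35 in the CNS4Flox libraries, with overlapping groups (edgeR log2 fold change -0.14, adjusted p = 0.970). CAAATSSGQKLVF was the most even of these chains, with 43, 13, 25, 9 and 46 counts in the CNS4KO libraries, against 23, 33, 33, 29 and 18 in the CNS4Flox libraries, from 13 sequences.

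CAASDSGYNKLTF had 57, 12, 12, 6 and 48 counts in the CNS4KO libraries, against 5, 2, 3, 14 and 6 in the CNS4Flox libraries. Its CNS4KO libraries 1 and 5 were the highest, and the groups overlapped (log2 fold change 1.75, SE 0.88, edgeR adjusted p = 0.571). The most shared TRAJ17 chain had 2, 2, 2, 6 and 111 in the CNS4KO libraries, against 5, 6, 83, 8 and 13 in the CNS4Flox libraries, so it was high in the same 2 libraries that shared the most clonotypes. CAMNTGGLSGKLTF was in 7 libraries at 1 to 8 counts, the widest spread of any TRAJ2 chain.

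Within a group, the CNS4Flox libraries shared a larger part of their chains on average, but no gene passed the test. The Jaccard index, the share of the chains of 2 libraries that both hold, was computed on amino acid chains at equal counts and averaged over the pairs of libraries in a group. It was 0.176 in CNS4KO and 0.204 in CNS4Flox for TRAJ9 (exact permutation p = 0.0238, adjusted 0.0549) and 0.101 and 0.128 for TRAJ11 (exact permutation p = 0.0159, adjusted 0.0549). TRAJ16 had 0.154 and 0.172, and TRAJ17 0.145 and 0.170, each with an exact permutation p of 0.0873, adjusted 0.114. None of the 4 genes and 0% of the 30 were called, while 19 of the 30, TRAJ9 and TRAJ11 among them, had an unadjusted exact permutation p below 0.05, all lower in CNS4KO. The mean index between libraries of different groups was 0.189 for TRAJ9 and 0.119 for TRAJ11, between the values within the groups. When sharing was instead taken as the number of chains in at least 3 of 5 libraries, all 4 genes passed, with differences of CNS4KO minus CNS4Flox between -89.9 and -30.7 chains (adjusted exact permutation p 0.0183 to 0.0397), as did 83.3% of the 30 genes. That number is not corrected for the distinct chains a library holds. At equal counts the CNS4KO libraries held fewer distinct clonotypes in all 4 genes, so it does not tell sharing from richness. The Jaccard index was taken at equal counts, not at equal numbers of distinct chains, so it does not fully separate them either. Without CNS4KO replicate 4 the Jaccard index of TRAJ11 and TRAJ17 passed (adjusted exact permutation p = 0.0476 each), as did that of 33.3% of the 30.

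Without thinning, 146 chains of the 5 genes were in all 5 CNS4KO libraries and 232 in all 5 CNS4Flox libraries. The other TRAJ genes had 1173 and 1817, so the lower CNS4KO number was not particular to the 5 genes. The numbers were 71 and 98 for TRAJ9, 40 and 71 for TRAJ17, 23 and 39 for TRAJ16, 11 and 22 for TRAJ11, and 1 and 2 for TRAJ2. They are not corrected for the distinct chains a library held. For the 5 genes these were 1665 ± 234 in CNS4KO and 1988 ± 188 in CNS4Flox libraries (SD, n = 5 each). Chains in all 5 libraries of 1 group and in none of the other numbered 1 and 1 in the 5 genes, and 3 in CNS4KO and 25 in CNS4Flox in the other TRAJ genes. A TRAJ16 chain had 1 count in each CNS4KO library and 0 in CNS4Flox, and a TRAJ17 chain had 4, 1, 1, 1 and 3 counts in the CNS4Flox libraries and 0 in CNS4KO. These are given as a description, since the pattern chose them.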

How the data were processed

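Per the file headers, each deposited table lists the clonotypes of a library with a whole-number count, its fraction of the library's counts over both chains, the CDR3 and V, D and J names. The labels' protocols give TRIzol extraction, template-switch cDNA with primers for both chains, a PCR in 2 steps and NovaSeq sequencing. The submitters' processing notes name mm10. The aligner and clonotype caller are not given in the sources used here.

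An entry was alpha if its CDR3 ended in at least 4 residues of a TRAJ end. The TRAJ ends come from general knowledge, with no germline sequence to check them against, and J bases are the most frequent base at each position in these data. From the 3′ end, they were followed until the most frequent base fell below 50% of the gene's distinct clonotypes. Of 387286 entries, 3990 matched no end of either chain, and 1790 alpha entries matched no single TRAJ. Alpha chains that the caller did not list at all are not measured.

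Counts per TRAJ gene and per chain were tested with edgeR's quasi-likelihood test (library size the alpha total, no TMM; TRAJ genes needed 10 counts or more in 5 or more libraries, chains in at least 5 libraries). Other values were compared with exact 2-sided permutation tests over 252 assignments of libraries, after thinning to the gene's smallest library for richness, top 10 share (20 draws) and overlap (10 draws). P-values were Benjamini-Hochberg adjusted over all genes or chains tested, separately in each of 6 kinds of permuted value. On simulated data the edgeR step recovered 3 of 3 genes changed 2-fold in each direction among 31. Among 6271 simulated chains it recovered 0 of 29 changed 2-fold in each direction. Of those changed 8-fold it recovered 18 of 32 higher and 2 of 23 lower. Of those changed 32-fold it recovered 32 of 33 higher and 12 of 19 lower. The simulated chains gave 1 false call. The simulated spread was a fixed setting, not estimated from these libraries, and chains expanded in a single library were not simulated. Recovery and false calls in the real data can therefore differ. Named chains are, for each gene, the pair with the highest mean share and the chain in most libraries, the largest in a library's top 10, and those called. Members, lists and tests were chosen with earlier results of these data known. The count tests ran in R 4.3.3 with edgeR 4.0.16 or, as an alternative, DESeq2 1.42.0. All else ran in Python 3.11.15 with scipy 1.17.1, pandas 2.3.3 and numpy 2.4.6.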

Additional observations from a re-analysis of the deposited data

Results flagged for a closer look

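Of 70 groups of 5 libraries examined for a single library far from the others, 6 held one, and chance alone gives about 1 in 20. In CNS4KO replicate 1, TRAJ9 had 5.91% of alpha counts (other CNS4KO libraries 3.54% to 4.18%), its top 10 clonotypes held 58.6% of TRAJ9 counts (17.3% to 26.9%), the top 10 of TRAJ17 held 65.4% (22.4% to 32.6%), and TRAJ17 richness was 315.7 (526.9 to 607). All 4 values lie in the library of the 2 largest chains. The mean TRAJ2 CDR3 length was 15.8 residues in CNS4Flox replicate 2 (15.3 to 15.4 in the other CNS4Flox libraries), from 71 distinct clonotypes. TRAJ17 kept 27.35 J bases in CNS4KO replicate 3 (26.99 to 27.08 in the other CNS4KO libraries).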

How the results depend on the processing

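Of the alternative values of the summed share, the summed ratio and the counts of genes or chains called, 149 moved by less than 1 SD between libraries (for counts, by at most 1.5 times) and 20 by more. Of those of single genes and chains, 573 kept direction and side of the threshold, 12 passed it anew, 8 lost it and 56 turned sign. No paired analysis was possible because the labels give no replicate numbers shared between groups. The cause of the changes was not tested beyond what a setting itself removes. Ranges below cover leaving out each library in turn and leaving out CNS4KO replicate 5 with CNS4Flox replicate 3, an alternative added after seeing the data.

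The difference in summed share ranged from -0.152 to 1.09 points and that in the log2 ratio from -0.0459 to 0.18. The share difference, 0.62 points, was 0.239 with a longer J end and 0.164 by distinct clonotype. The ratio difference, 0.0651, was 0.0324 with a longer J end and 0.021 without count 1. Chains called numbered 0 to 3 in these runs, 0 by DESeq2, 0 by nucleotide clonotype and 15 among chains in at least 3 libraries, of which 12 were higher. Genes called for richness were 0 without clonotypes of count 1 and 2 without thinning. For the top 20 clonotypes 1 gene was called, and for a threshold of 0.02% for expansion 1. For overlap the ranges were 0 to 2, a longer J end gave 1, no thinning 1, and the number in at least 3 of 5 libraries 4.

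Signs turned in the values that follow. For log2 fold changes of counts, TRAJ2 ranged from -0.0217 to 0.37. TRAJ9 ranged from -0.144 to 0.0589 and was 0.0326 with TMM and 0.0385 with DESeq2. TRAJ11 ranged from -0.144 to 0.0166. TRAJ16 ranged from -0.0962 to 0.085 and was 0.0347 with TMM, 0.0255 with DESeq2 and 0.00966 without count 1. For distinct clonotypes, TRAJ9 ranged from -0.0216 to 0.0128 and was 0.0247 by amino acid, TRAJ11 from -0.00504 to 0.0334 and TRAJ16 from -0.0494 to 0.0132. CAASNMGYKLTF ranged from -0.471 to 0.119 and was 0.0746 with TMM and 0.156 with DESeq2. The most shared TRAJ17 chain ranged from -2.93 to 1.33 and was 0.0742 with TMM, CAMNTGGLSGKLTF from -0.476 to 1.48 and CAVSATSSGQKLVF from -2.46 to 3.24. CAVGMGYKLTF, the chain called, ranged from -0.0653 to 7.88, with edgeR adjusted p 1.87e-08 to 0.986 over its alternatives. Length differences without count 1 were 0.0511 in TRAJ9, 0.0839 in TRAJ11 and -0.00109 in TRAJ16, which was -0.0353 by count and ranged from -0.00944 to 0.0478. For kept J bases, TRAJ11 was -0.0459 by count and ranged from -0.0247 to 0.0633, TRAJ16 was -0.0394 without count 1, and TRAJ17 ranged from -0.0982 to 0.000813.

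Depth limits TRAJ2, with 65 to 208 counts a library, and chains under about 0.00748% of alpha counts.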
